A study of Saccharomyces cerevisiae with 18 samples.

Results

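The comparison described here is that of yeast cultures given nonylphenol at 1 mg/L and collected after 180 min with cultures given the same dose and collected after 120 min. It rests on 6 of the 18 arrays of the study, 3 at each time, chosen by their sample titles alone, and all 5498 S. cerevisiae probe sets were tested. Nonylphenol is a breakdown product of surfactants used in industry. The cells were BY4742, a haploid laboratory strain of mating type alpha, grown in the rich medium YPD at 30 °C and dosed in mid-exponential growth. The study profiled the transcriptional response to the compound and compared cultures given 1 mg/L or 5 mg/L, dissolved in ethanol, with control cultures given only an equal volume of ethanol. All groups, the controls included, thus carried ethanol. The labels call the 3 arrays of a group biological replicates. They do not say whether the cultures of 120 and 180 min were the same flasks sampled again. A p-value here reflects only how far arrays scatter within groups, with a spread pooled over all 18 arrays. Their number limits the precision.

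When a growing yeast culture uses up its medium or meets stress, it typically makes less of the machinery that builds ribosomes and more of the proteins of respiration, of glycogen storage and of the general stress response. Glucose transporters of low affinity give way to others of higher affinity, and enzymes of the Ehrlich pathway turn amino acids into fusel alcohols. A change between 2 collection times therefore holds whatever the growth of the culture brings with it, together with any effect of longer exposure. In a bulk culture, fewer cells of one kind and less RNA per cell cannot be told apart.

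Values are RMA signals on a log2 scale, so a difference of 1 is a doubling. Of the S. cerevisiae probe sets, 98.2 to 99.3% lay above the background level of 1.86 on each array, and replicate arrays correlated at r = 0.9954 to 0.9976 at 120 min and 0.9941 to 0.9971 at 180 min. The alpha-specific genes SAG1 and STE3 read 11.38 to 11.57 and 9.999 to 10.16 over the 6 arrays. Genes specific to mating type a read from 1.71 (ASG7) to 5.71 (STE6), and URA3 and LYS2, absent from the standard genotype, stayed below background at no more than 1.19 and 1.62. LEU2, absent as well, read 2.97 to 3.30, and HIS3, deleted in part, read 9.12 to 9.45, so neither probe set marked its deletion. None of these markers passed the test between the times. One array stood apart: bacterial poly-A control transcripts, a reagent for addition to RNA samples, averaged 4.94 on replicate 2 at 180 min, against 3.99 and 4.17 on the other 180 min arrays and 4.29, 4.11 and 4.01 at 120 min. The same array had the highest 3′ minus 5′ difference of the ACT1 control probe sets among the 6, a sign of RNA quality, at 0.96, followed by replicate 1 at 120 min with 0.90, while the other 4 read 0.53 to 0.70.

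Between 120 and 180 min at 1 mg/L, many genes moved by small amounts, more of them down than up. At a limma adjusted p under 0.05, 561 probe sets differed, or 10.2% of those tested, with 190 higher at 180 min (3.46%) and 371 lower (6.75%). None of them changed by more than 2-fold. Above 1.5-fold stood 8 that rose and 10 that fell, and the median size among those called was 0.29 (log2), against a median standard error (SE) of 0.07 over all probe sets. The 3 arrays at 180 min lay entirely above those at 120 min for 184 of the 190 and entirely below for 351 of the 371, where 9.02% and 15% of all probe sets did so. The calls come from these same arrays, so this separation is not independent support. The counts rest on a spread pooled over all 18 arrays, while replicate arrays differed more at 1 mg/L than in controls. The median absolute difference between replicate arrays of a group was 0.09 to 0.14 at 1 mg/L and 0.06 to 0.08 in controls. With the spread taken from the 6 compared arrays only, the counts were 12 higher and 25 lower, all among the 561. They also moved with single arrays: without replicate 3 at 120 min they were 86 and 179, without replicate 3 at 180 min 75 and 178, without replicate 1 at 180 min 317 and 481, and without replicate 1 at 120 min 135 and 204. When each array was centred on its median, the split of 190 to 371 became 255 to 274. Scaling to the poly-A transcripts shifted all genes by -0.24 (log2, SE of a single gene 0.27) and left none called, with 277 at an unadjusted p under 0.05. The shift turned the sign of 55 of the 190 rises and of none of the 371 falls. Being downward for all genes alike, it could turn rises only. For the falls, and for list medians below 0 further on, it is therefore no test of the sign. Without replicate 2 at 180 min the shift was 0.05, and again none was called, with 64 at an unadjusted p under 0.05. Levels below are therefore relative to the deposited scaling, and the part of the poly-A readings in the results was not tested.

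The 2 largest falls were in hexose transport. HXT1 (YHR094C), a low-affinity glucose transporter, read 6.72, 6.76 and 6.89 on the arrays of 120 min and 6.04, 5.80 and 5.94 on those of 180 min. All 3 later arrays lay below the earlier ones, and the gene was 1.82-fold lower (log2 -0.86 with an SE of 0.08, 3 arrays at each time, limma adjusted p = 2.89e-05). HXT2 (YMR011W), a high-affinity transporter, went from 9.30, 9.35 and 9.66 to 8.69, 8.52 and 8.80, again without overlap (log2 -0.76, SE 0.10, limma adjusted p = 0.000264). HXT4 (YHR092C), another high-affinity transporter, moved the other way, from 9.95, 9.90 and 9.95 to 10.29, 10.15 and 10.38 (log2 0.34, SE 0.06, adjusted p = 0.00362). HXT7 rose by 0.30, read by a probe set of a type that near-identical transcripts can share. GLK1, glucokinase, rose by 0.37. HXT3, an abundant low-affinity transporter, differed by -0.09 (adjusted p = 0.3). Of the 27 measured genes of hexose transport and glucose sensing, 3 rose, 2 fell and 22 did not pass. That is 11.1% higher and 7.41% lower, beside 3.46% and 6.75% of all probe sets, so the share of falls was close to that of all probe sets. The median of the list was 0.02, against -0.01 over all probe sets. The 2 falls were called without each of the 6 arrays in turn, while the rises were 1 instead of 3 without replicate 3 at 180 min.

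**Figure D1:**
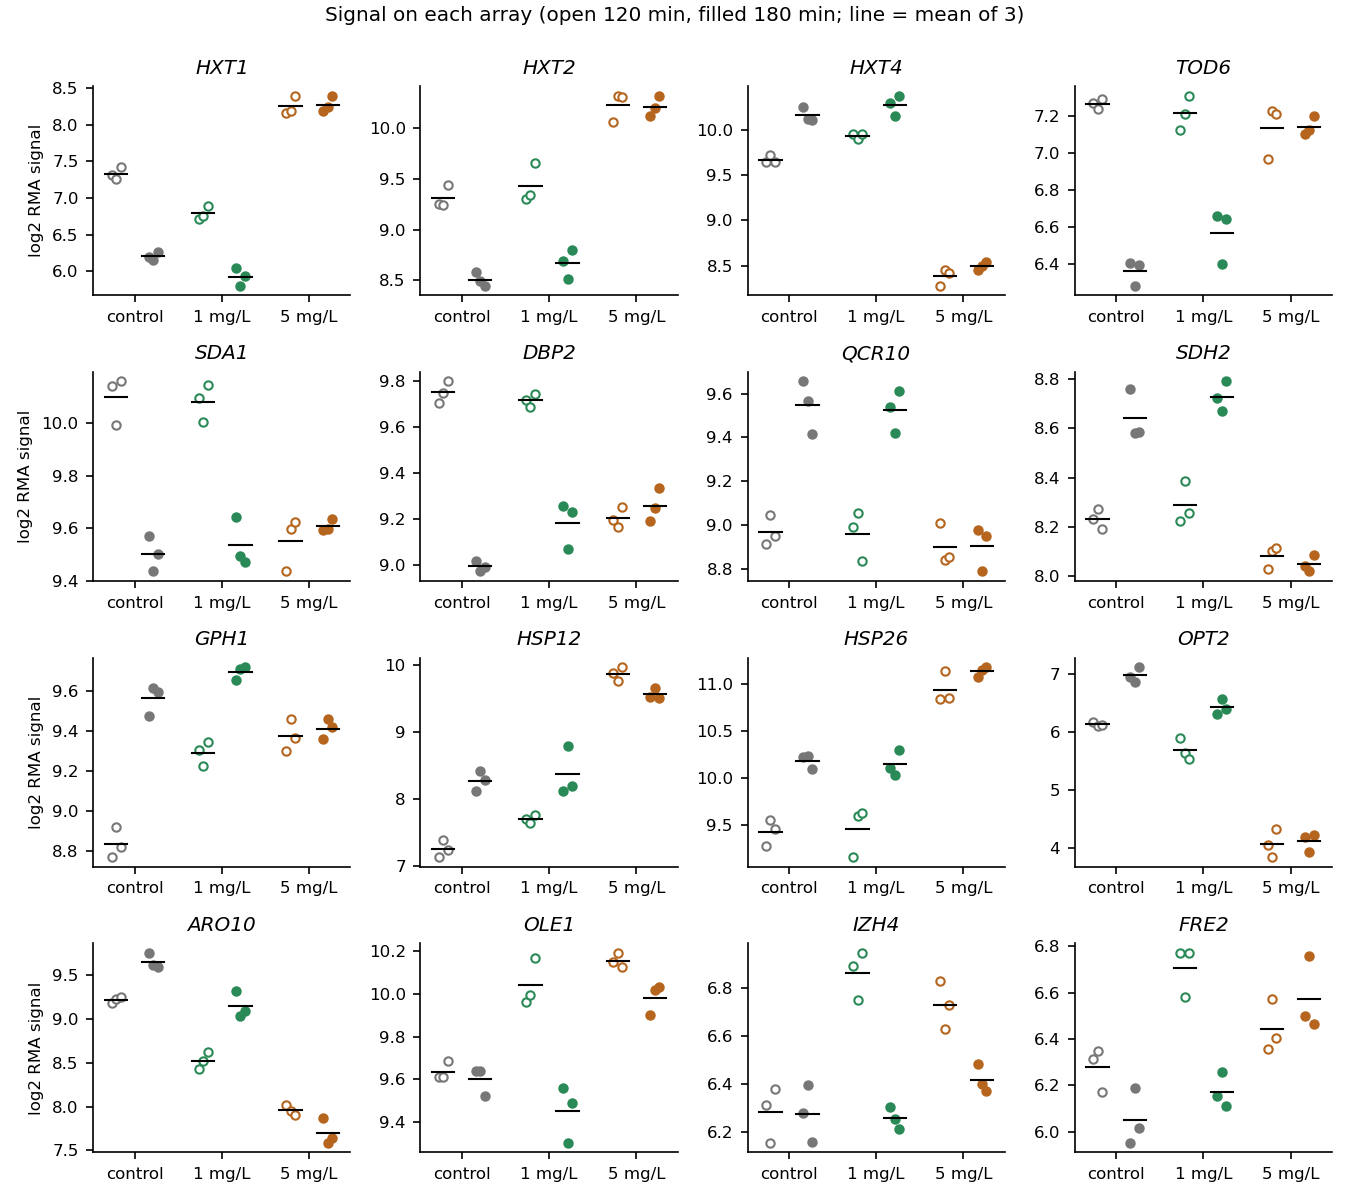
RMA signal (log2, vertical axes, which differ between panels and do not start at 0) of 16 genes on each of the 18 arrays, for control, 1 mg/L and 5 mg/L cultures; open points are 120 min, filled points 180 min, and lines are means of 3 arrays. In the green 1 mg/L columns the filled and open points do not overlap for any of the 16 genes, and HXT1 falls from between 6.72 and 6.89 to between 5.80 and 6.04. Most of these genes were named on the condition that their 1 mg/L arrays did not overlap, so this is no finding of its own.

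Genes that assemble ribosomes fell together. Of 73 measured ribosome biogenesis genes, which process ribosomal RNA and build both subunits in the nucleolus, 53 fell and none rose, with the other 20 not passing. That is 72.6% of the list beside 6.75% of all probe sets. All 73 estimates lay below 0, from -0.05 to -0.55, with a median of -0.31 that stayed below 0 under every scaling tried, at -0.54 with poly-A scaling and at -0.20 with that scaling and replicate 2 at 180 min left out. The mean signal of the list was 9.24, 9.17 and 9.23 on the 120 min arrays and 9.005, 8.83 and 8.89 at 180 min, so the array means did not overlap. Leaving out any 1 of the 6 arrays gave 41 to 58 falls, leaving out both arrays with high ACT1 differences (replicate 1 at 120 min and replicate 2 at 180 min, the doubted arrays below) gave 24, and on the compared arrays only there were 6.

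SDA1 (YGR245C), needed to make the large subunit, read 10.10, 10.004 and 10.15 at 120 min and 9.64, 9.49 and 9.47 at 180 min. It fell 1.46-fold (log2 -0.55, SE 0.07, limma adjusted p = 0.000156), the largest fall in the list. DBP2 (YNL112W), a DEAD-box RNA helicase, went from 9.72, 9.69 and 9.74 to 9.25, 9.07 and 9.23, or -0.53 with the smallest p of the list (8.43e-05 after adjustment). FAF1 and ENP2, both required for 18S ribosomal RNA, fell by 0.52 and 0.49 on the log2 scale, and RRP12, which helps export both subunits, by 0.51. Members that did not pass included NOP1, fibrillarin, at -0.19 (adjusted p = 0.128), and NOP56, its partner in box C/D particles, at -0.19 (adjusted p = 0.225).

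Outside that list, 3 genes among the 15 largest falls act on the same process. TOD6 (YBL054W), a repressor that binds a motif in front of ribosome biogenesis genes, itself read 7.12, 7.21 and 7.31 and then 6.66, 6.40 and 6.65 (log2 -0.65, SE 0.08, limma adjusted p = 0.000156). DHR2, an RNA helicase of 18S ribosomal RNA synthesis, and BUD22, which acts in small subunit processing, fell by 0.57 and 0.56 on the log2 scale. These roles are background and were not a list fixed for testing.

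RNA polymerases I and III, which transcribe ribosomal RNA, 5S RNA and tRNA, followed with smaller changes. Of their 28 subunits and factors, 11 fell and none rose, or 39.3% beside 6.75% of all probe sets, and the median was -0.15, below 0 under each scaling tried. RPA190, the largest subunit of polymerase I, read 10.70, 10.60 and 10.64 and then 10.39, 10.32 and 10.21 (log2 -0.33, SE 0.07, limma adjusted p = 0.00476). RPA135 fell by 0.27, RRN11, a core factor of polymerase I, by 0.31, and RPC37, a polymerase III subunit, by 0.28. The 11 falls were 6 without replicate 1 or without replicate 3 at 120 min and 5 without replicate 3 at 180 min, 3 without both doubted arrays and none on the compared arrays only.

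Genes for the proteins of the cytosolic ribosome itself were not called along with its assembly factors, which does not show that they were unchanged. None of the 128 measured genes passed in either direction at an adjusted p under 0.05 in limma, where 10.2% of all probe sets did. Their median was 0.06, with 115 estimates above 0, and poly-A scaling turned that median to -0.18. The list mean per array was 11.73, 11.64 and 11.51 at 120 min and 11.65, 11.72 and 11.71 at 180 min, which overlap. Of 75 mitochondrial ribosomal proteins, 8 rose and none fell (10.7% beside 3.46% of all probe sets), with a median of 0.15 that turned to -0.09 under poly-A scaling. SWS2 and MNP1, of the small and the large mitochondrial subunit, rose by 0.28 and 0.27. That count moved with single arrays: it was 0 without replicate 3 at either time, 3 without replicate 1 at 120 min, 5 without replicate 2 at 180 min, 23 without replicate 1 at 180 min, 3 without both doubted arrays and none on the compared arrays only.

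**Figure D2:**
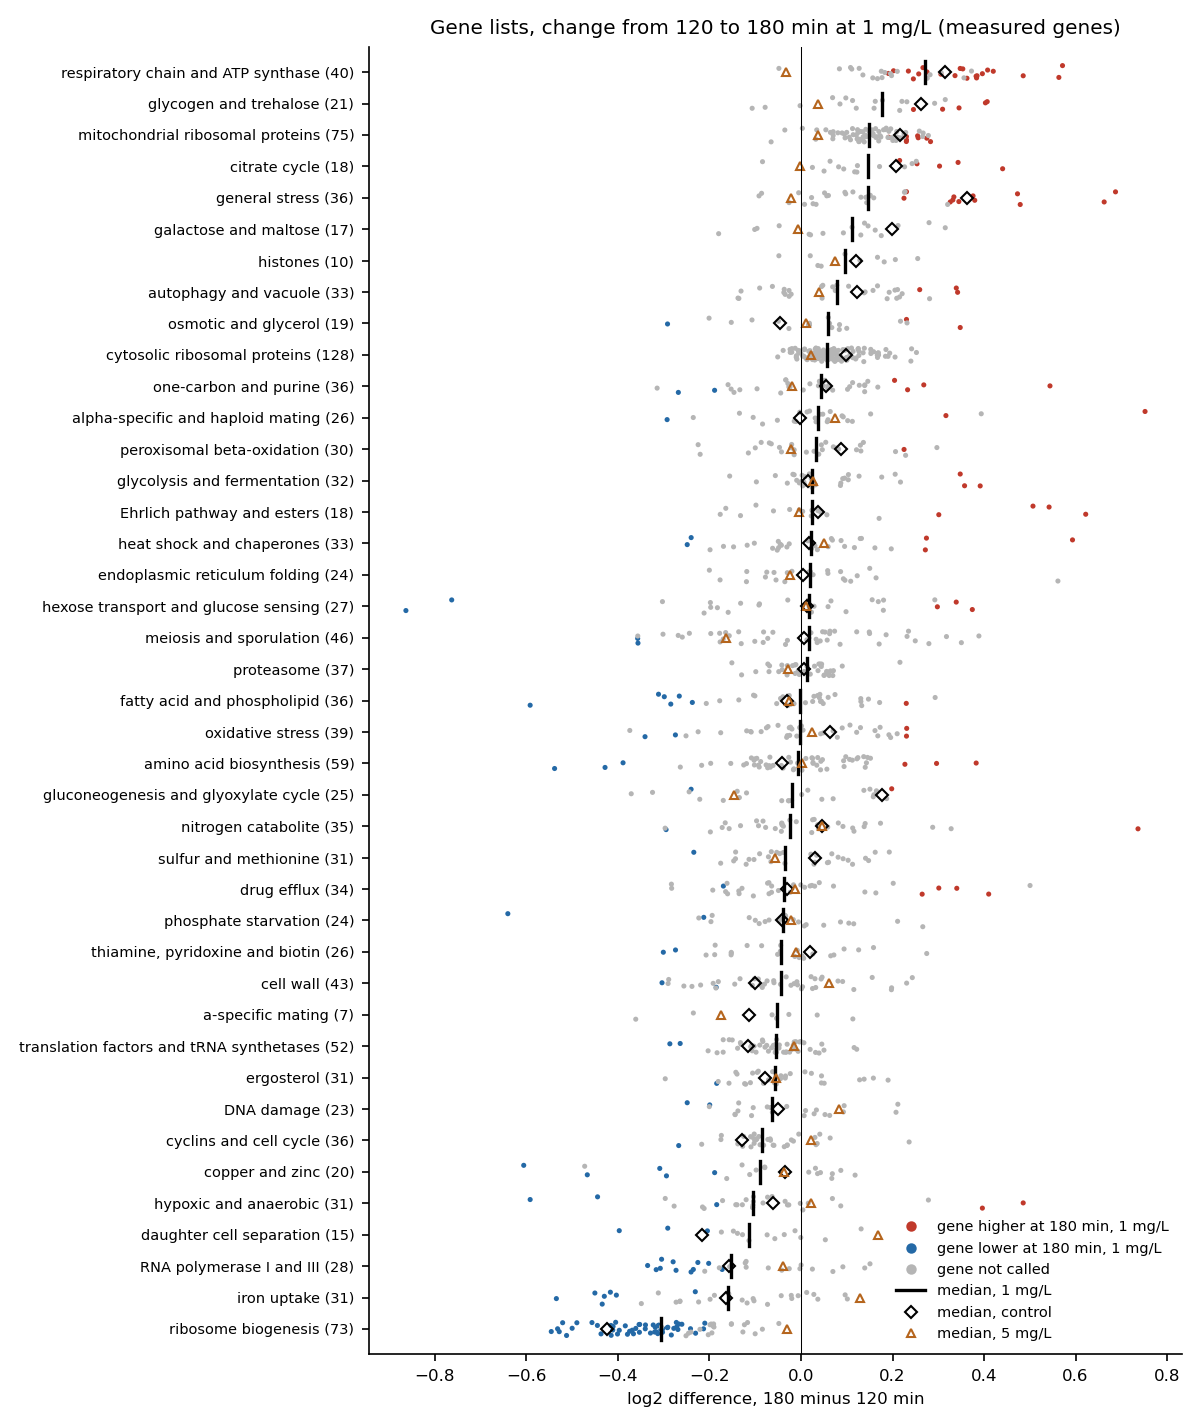
Change from 120 to 180 min (log2, horizontal axis) of every measured gene in 41 gene lists at 1 mg/L, with list sizes in brackets; red and blue points passed the test (adjusted p under 0.05), bars are list medians at 1 mg/L, diamonds those of controls and triangles those of 5 mg/L. Ribosome biogenesis lies at the bottom with a median of -0.31 and respiration at the top with 0.27; under poly-A scaling all medians move down by 0.24, and only that of respiration stays above 0, at 0.04.

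Genes of respiration rose. Of 40 genes for the respiratory chain and ATP synthase, 21 rose and none fell, or 52.5% of the list beside 3.46% of all probe sets. The median was 0.27, and it stayed above 0 under each scaling, at 0.04 with poly-A scaling. The mean signal of the list was 9.19, 9.21 and 9.13 at 120 min and 9.43, 9.45 and 9.47 at 180 min, with a gap between the times. QCR10, a subunit of the cytochrome bc1 complex, read 8.99, 9.05 and 8.84 and then 9.54, 9.42 and 9.61 (log2 0.56, SE 0.08, limma adjusted p = 0.000452). STF2, a small protein linked to ATP synthase, rose by 0.57, COX5B, the form of a cytochrome oxidase subunit known from low oxygen, by 0.49, and its aerobic counterpart COX5A by 0.23, which poly-A scaling turned to -0.0011. COX8, QCR8 and COX6 rose by 0.41, 0.42 and 0.35. With any 1 array left out, 14 to 24 members rose, without both doubted arrays 12 did, and on the compared arrays only 1 did.

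In the citrate cycle most genes did not pass. Of its 18 genes, 5 rose (27.8% beside 3.46% of all probe sets), none fell, and 17 estimates lay above 0, with a median of 0.15 that turned to -0.09 under poly-A scaling. SDH2, the iron-sulfur subunit of succinate dehydrogenase, read 8.22, 8.39 and 8.26 and then 8.72, 8.67 and 8.79 (log2 0.44, SE 0.06, limma adjusted p = 0.000323). SDH4, SDH3 and IDH2 rose by 0.34, 0.25 and 0.22 (IDH2 turned to -0.02 by poly-A scaling), and CIT1, mitochondrial citrate synthase, by 0.30. The 5 rises were 3 without replicate 3 at 180 min, 2 without both doubted arrays and 1 on the compared arrays only. Gluconeogenesis, by contrast in its counts, had 1 rise and 1 fall among 25 genes, MDH2 at 0.20 (-0.0376 under poly-A scaling) and ATO3 at -0.24. That is 4% each way, beside 3.46% and 6.75% of all probe sets. PCK1, which commits carbon to glucose synthesis, differed by -0.04 (adjusted p = 0.843), and ICL1 of the glyoxylate cycle by -0.03 (adjusted p = 0.803).

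A minority of stress and storage genes rose relative to the deposited scaling. Of 36 general stress genes, mostly targets of the factors Msn2 and Msn4, 12 rose and none fell (33.3% beside 3.46% of all probe sets), with a median of 0.15 that poly-A scaling turned to -0.09. HSP12 (YFL014W), a membrane-protecting protein, read 7.71, 7.65 and 7.77 at 120 min and 8.12, 8.79 and 8.19 at 180 min. Its groups did not overlap, but replicate 2 at 180 min stood well above its fellows (log2 0.66, SE 0.13, limma adjusted p = 0.00486). HSP26 (YBR072W), a small heat shock chaperone, went from 9.16, 9.60 and 9.62 to 10.11, 10.03 and 10.30 (log2 0.69, SE 0.11, adjusted p = 0.00153). SOL4, an enzyme of the pentose phosphate pathway, and RTC3 rose by 0.48 and 0.47, while CTT1, cytosolic catalase, differed by 0.03 (adjusted p = 0.844). The mean of the list was 6.67, 6.68 and 6.69 and then 6.74, 6.98 and 6.91, so replicate 1 at 180 min lay closest to the earlier arrays. The 12 rises were 7 without replicate 1 at 120 min, 2 without both doubted arrays, and none on the compared arrays only.

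Among 21 glycogen and trehalose genes, 5 rose (23.8% beside 3.46% of all probe sets) and none fell. The median was 0.18, which turned to -0.06 under poly-A scaling. GPH1, glycogen phosphorylase, read 9.31, 9.23 and 9.35 and then 9.66, 9.71 and 9.72 (log2 0.40, SE 0.06, limma adjusted p = 0.000599). The branching enzyme GLC3, the synthase GSY1 and the primer protein GLG1 rose by 0.35, 0.31 and 0.25, and GAC1, which directs a phosphatase to glycogen synthase, by 0.41. TPS1, which makes trehalose phosphate, differed by 0.11 (adjusted p = 0.45). The 5 rises were 3 without replicate 2 at 120 min or without replicate 3 at 180 min, 2 without both doubted arrays and 1 on the compared arrays only. Of 33 heat shock and chaperone genes, 3 rose (HSP30 by 0.59, SSA4 and HSP104 by 0.27 each) and 2 fell (SSA3 at -0.24 and HSF1, the heat shock factor, at -0.25). These were 9.09% and 6.06% of the list, beside 3.46% and 6.75% of all probe sets. None of the 3 rises passed without replicate 1 at 120 min or without replicate 3 at 180 min.

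**Figure D3:**
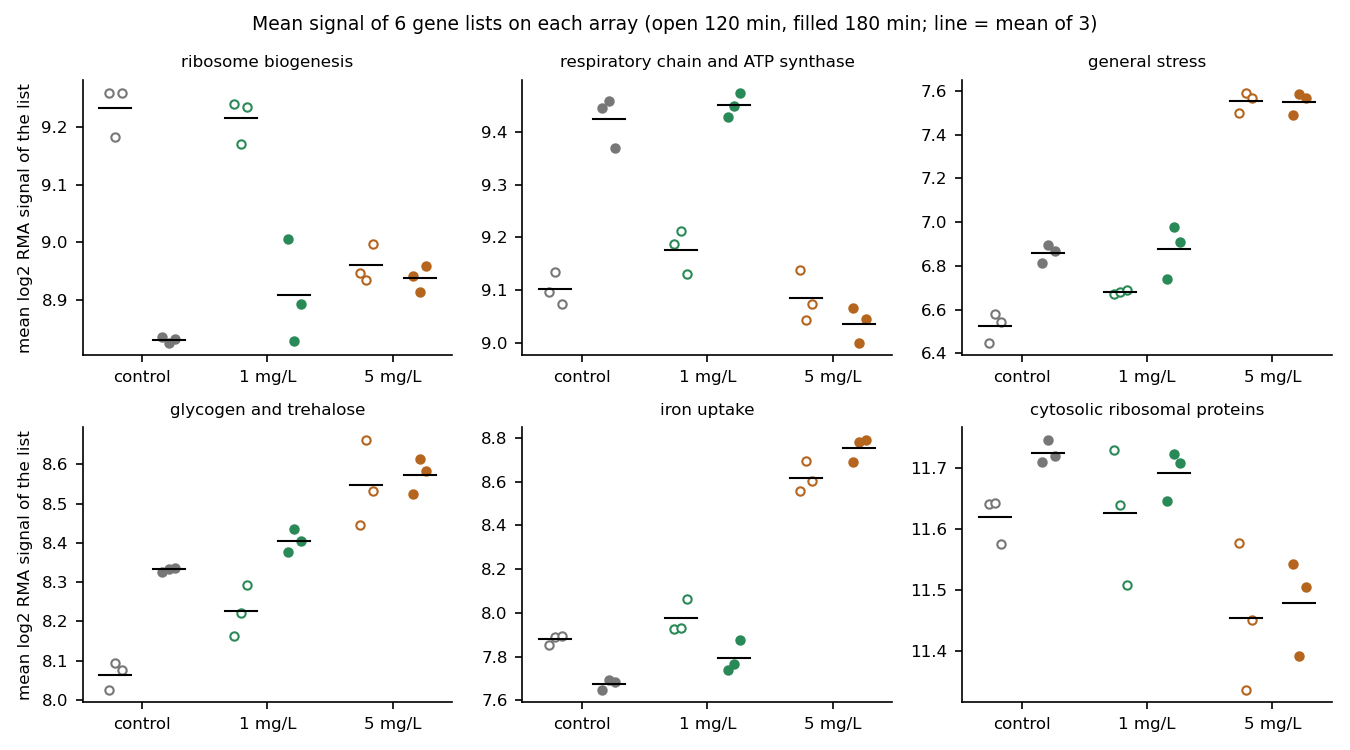
Mean signal (log2 RMA, vertical axes, which differ between panels and do not start at 0) of 6 gene lists on each array, by dose, with 120 min as open and 180 min as filled points and lines as means of 3 arrays. At 1 mg/L the ribosome biogenesis mean falls from between 9.17 and 9.24 to between 8.83 and 9.005 and the respiration mean rises from between 9.13 and 9.21 to between 9.43 and 9.47; poly-A scaling would turn the medians of the stress, glycogen and ribosomal protein lists below 0.

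OPT2 (YPR194C), an oligopeptide transporter, read 5.90, 5.63 and 5.54 and then 6.30, 6.57 and 6.40, 1.67-fold higher without overlap (log2 0.74, SE 0.12, limma adjusted p = 0.00123). It was the 1 gene of 35 under nitrogen catabolite control to rise (2.86% beside 3.46% of all probe sets). GAT1, a regulator of that system, was the 1 to fall, by 0.29 (2.86% beside 6.75%). ARO10 (YDR380W), the decarboxylase of the Ehrlich pathway, went from 8.42, 8.52 and 8.63 to 9.32, 9.04 and 9.09 (log2 0.62, SE 0.08, adjusted p = 0.000267). ARO9, its aromatic aminotransferase, rose by 0.54, EEB1, which makes ethyl esters of fatty acids, by 0.51, and PDR12, an exporter of weak acids, by 0.30. These 4 were the called genes among 18 of the Ehrlich list (22.2% beside 3.46% of all probe sets), none fell, and the median was 0.02. Amino acid synthesis was mixed, with 3 rises and 3 falls among 59 genes (5.08% each way, beside 3.46% and 6.75% of all probe sets). LYS20, homocitrate synthase of lysine synthesis, fell from 9.33, 9.20 and 9.29 to 8.61, 8.85 and 8.76 (log2 -0.54, SE 0.06, adjusted p = 9.81e-05), and HIS4 rose by 0.38. ADE17, which acts late in purine synthesis, rose by 0.54.

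The single largest rise belonged to FIG1 (YBR040W), a membrane protein of mating cells, at a level near background. It read 2.78, 2.87 and 2.46 at 120 min and 3.30, 3.64 and 3.43 at 180 min, 1.68-fold higher (log2 0.75, SE 0.11, limma adjusted p = 0.000599). Of the 26 alpha-specific and haploid mating genes, STE18, the gamma subunit of the pheromone G protein, also rose, by 0.32. Of the PRM7 probe sets, 1 fell by 0.29 while its other one read -0.34 without passing. Rises were 7.69% of the list and falls 3.85%, beside 3.46% and 6.75% of all probe sets. Other large rises were EGO4 (0.67), YPC1, an alkaline ceramidase (0.61), HMS1 (0.54) and RGI1, known from respiratory growth (0.54).

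Some metal uptake genes fell, while most did not pass. Of 31 iron uptake genes, mostly targets of the iron regulators Aft1 and Aft2, 7 fell and none rose, or 22.6% beside 6.75% of all probe sets. The median was -0.16, below 0 under each scaling tried. FRE2 (YKL220C), a ferric reductase at the cell surface, read 6.77, 6.58 and 6.77 and then 6.15, 6.26 and 6.11 (log2 -0.53, SE 0.09, limma adjusted p = 0.00143). FRE1, the main surface reductase, and SIT1, a siderophore transporter, each fell by 0.43, the cell wall protein FIT3 by 0.40 and AFT1 itself by 0.23. The 7 falls were 2 without replicate 3 at 120 min and 4 without replicate 1 or without replicate 2 at 180 min, 2 without both doubted arrays and 1 on the compared arrays only. Copper and zinc genes gave 5 falls among 20 (25.0% beside the same 6.75%). The largest was IZH4 at -0.61, which is described below with its control values. Others included the copper transporters CTR3 and CTR1 at -0.47 and -0.31 and the zinc transporter ZRT1 at -0.19. These 5 were 2 without replicate 3 at 120 min and 3 without replicate 1 at 120 min or without replicate 2 or 3 at 180 min, 2 without both doubted arrays and 1 on the compared arrays only. PHO89, a phosphate transporter, fell from 5.18, 5.26 and 5.52 to 4.63, 4.65 and 4.76 (log2 -0.64, SE 0.10, adjusted p = 0.00105), while PHO84, the main high-affinity phosphate transporter, differed by -0.09 (adjusted p = 0.54).

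A smaller set of falls was in lipid synthesis. OLE1 (YGL055W), the desaturase that makes monounsaturated fatty acids, read 9.96, 9.996 and 10.17 at 120 min and 9.56, 9.30 and 9.49 at 180 min, 1.51-fold lower without overlap (log2 -0.59, SE 0.07, limma adjusted p = 0.000149). MGA2, the membrane-bound activator of OLE1, fell by 0.30. ACC1, which makes malonyl-CoA, and FAS2, a subunit of fatty acid synthase, fell by 0.28 and 0.24, FAA4, an acyl-CoA synthetase, by 0.31, and INO2, a regulator of phospholipid synthesis, by 0.27. FAA1, another acyl-CoA synthetase, rose by 0.23, which poly-A scaling turned to -0.0058. Thus 6 of 36 fatty acid and phospholipid genes fell (16.7% beside 6.75% of all probe sets) and 1 rose (2.78% beside 3.46%), though the median was 0.00. The 6 falls were 2 without replicate 3 at either time and 1 on the compared arrays only, and OLE1 was called without each of the 6 arrays. Among 31 ergosterol genes only HMG1, a reductase of the mevalonate pathway, passed, at -0.18 (3.23% beside 6.75% of all probe sets). IZH4 (YOL101C), a membrane protein of the Izh family linked to zinc, fell from 6.89, 6.75 and 6.94 to 6.30, 6.25 and 6.21 (log2 -0.61, SE 0.07, adjusted p = 0.000183). MCM10, a replication factor, fell by 0.71, from 5.96, 5.30 and 5.94 to 5.29, 5.25 and 4.52, and was not called without replicate 1 or 3 at 120 min or replicate 3 at 180 min.

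Several lists held few or no calls, where 3.46% of all probe sets rose and 6.75% fell. No histone gene of 10, proteasome gene of 37, galactose or maltose gene of 17, a-specific gene of 7 or gene of protein folding in the endoplasmic reticulum of 24 passed in either direction. Among 36 cyclin and cell cycle genes, RAD27, a nuclease that processes Okazaki fragments, was the 1 called, at -0.27 (2.78% of the list). Drug efflux gave 4 rises of 34, or 11.8% (TPO4 by 0.41, QDR2 by 0.34, PDR12, and RSB1 by 0.26). Its 1 fall, or 2.94%, was the regulator PDR1 at -0.17. Oxidative stress gave 2 rises of 39 (5.13%), the glutaredoxins GRX1 and GRX2 at 0.23 each, which poly-A scaling turned to -0.0048 and -0.0053. Its 2 falls (5.13%) were GPX2 at -0.34 and GEX1. Glycolysis and fermentation gave 3 rises of 32 (9.38%), GPM2 by 0.39, TDH1 by 0.36 and GPP2 by 0.35. In all, 85 of the 190 higher probe sets and 117 of the 371 lower ones stood in a list, and 105 and 254 in none.

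The same interval was measured in cultures given ethanol alone, with no array in common with the 1 mg/L comparison. The RNA quality sign moved with time there: the ACT1 3′ minus 5′ difference was 0.75, 0.71 and 0.68 on control arrays at 120 min and 0.74, 0.96 and 0.95 at 180 min, and its part in the control changes was not tested. In controls 1278 probe sets changed, or 23.2%, with 612 higher (11.1%) and 666 lower (12.1%). The total was 740 and 678 without replicates 1 and 3 at 120 min and 646 without replicate 2 at 180 min. Of the 190 higher at 1 mg/L all 190 had a control estimate above 0, and 168 (88.4%) were called higher there, which is 27.5% of the control's list. Of the 371 lower, 368 had the same sign and 314 (84.6%) were called lower, or 47.1% of the control's list. The 3 exceptions, singled out after their values were seen, were GEX1 (-0.27 at 1 mg/L and 0.02 in controls), read by a probe set of a shared type, YDL186W (-0.57 and 0.06) and YLL006W-A (-0.45 and 0.16), the last 2 with means below background at both times. No probe set was called in opposite directions. Across probe sets, which are not independent replicates, the changes correlated at r = 0.837.

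Gene by gene, the control values stood beside those of 1 mg/L as follows. HXT1 changed by -1.13 in controls, HXT2 by -0.80, TOD6 by -0.91, HSP12 by 1.02, OPT2 by 0.84 and QCR10 by 0.58. The list medians in controls were -0.42 for ribosome biogenesis (66 of 73 fell), 0.32 for respiration (31 of 40 rose), 0.36 for general stress (20 of 36 rose), 0.26 for glycogen and trehalose (12 of 21 rose), 0.22 for mitochondrial ribosomal proteins (43 of 75 rose) and -0.16 for iron uptake (10 of 31 fell). Over all probe sets, 11.1% rose and 12.1% fell in controls. Gluconeogenesis and the glyoxylate cycle stood apart, with a median of 0.18 in controls (8 of 25 rose and 1 fell) and -0.02 at 1 mg/L. The difference between these medians was not tested. The ribosome biogenesis mean was 9.26, 9.18 and 9.26 on control arrays at 120 min and 8.83, 8.83 and 8.83 at 180 min.

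The difference between the changes at 1 mg/L and in controls was tested directly. No probe set passed at an adjusted p under 0.05 in limma, and 139 (2.53%) had an unadjusted p under 0.05, where 275 would under no difference at all. With array weights, which let noisy arrays count less, 159 passed. On the 1 mg/L arrays these weights were 0.38, 4.62 and 0.45 at 120 min and 0.44, 0.27 and 2.73 at 180 min. Under that setting each 1 mg/L group thus rested largely on a single array. A missed threshold does not show that the changes were equal, and the SE of such a difference was about 0.10 for OLE1 and 0.11 for HXT1.

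**Figure D4:**
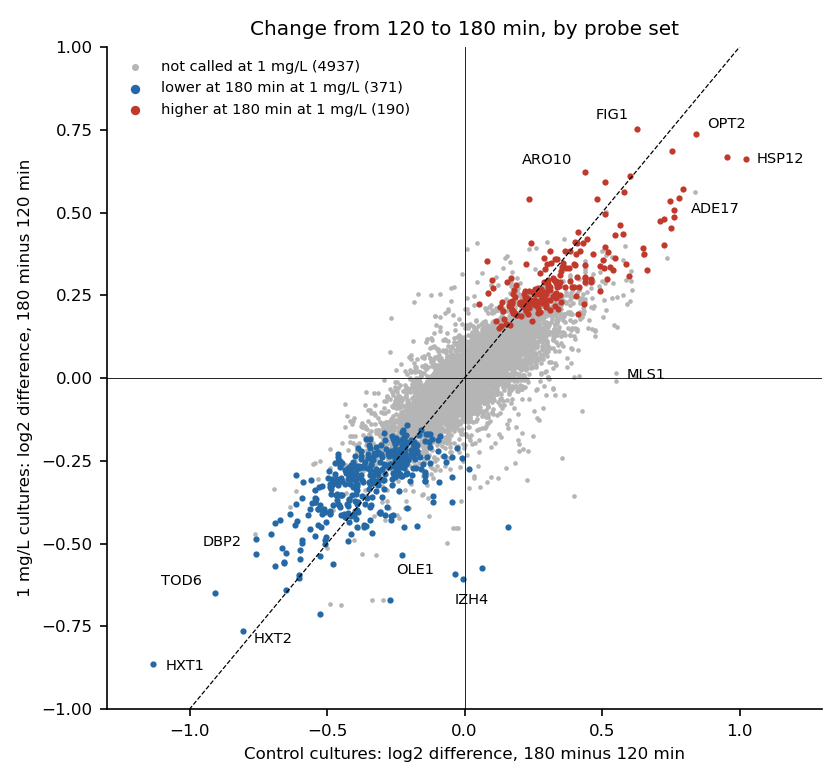
Change from 120 to 180 min (log2) of 5498 probe sets in controls (horizontal axis) and at 1 mg/L (vertical axis); red and blue mark those called higher (190) and lower (371) at 1 mg/L, and the dashed line marks equal changes. The coloured points follow the diagonal, and OLE1 and IZH4 lie far below 0 at 1 mg/L with control changes of -0.04 and -0.01.

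OLE1 and IZH4 came closest to the threshold. OLE1 read 9.61, 9.61 and 9.68 in controls at 120 min and 9.64, 9.64 and 9.52 at 180 min, a change of -0.04, so its change at 1 mg/L was lower by 0.56 on the log2 scale (estimate -0.56, SE 0.10, limma adjusted p = 0.0825). IZH4 read 6.31, 6.15 and 6.38 in controls and then 6.28, 6.39 and 6.16, a change of -0.01, and differed by -0.60 (SE 0.11, adjusted p = 0.0825). For both, the 1 mg/L arrays at 120 min all lay above the control arrays of that time, while at 180 min the levels at 1 mg/L were 9.30 to 9.56 and 6.21 to 6.30. The adjusted p over the alternatives ran from 0.00868 to 1 for OLE1 and from 0.0205 to 1 for IZH4, below 0.05 only with array weights. MLS1, malate synthase of the glyoxylate cycle, differed by -0.54 (adjusted p = 0.854), having risen by 0.55 in controls while its 1 mg/L arrays read 3.41, 3.34 and 3.35 and then 3.33, 3.46 and 3.35. The smallest p in the other direction belonged to LTV1, OAC1 and PAU17, at 0.25, 0.35 and 0.25, with adjusted p = 0.998 for each, and the PAU17 probe set is of a type that related transcripts share.

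At 5 mg/L the same interval looked different. Only 49 probe sets changed there (0.891%), 20 higher and 29 lower. Of the 190 higher at 1 mg/L, 98 had an estimate above 0 at 5 mg/L and 1, FSH1, was called (0.22 at 1 mg/L, or -0.01 under poly-A scaling, and 0.29 at 5 mg/L), and the median over the 190 was 0.27 at 1 mg/L and 0.00 at 5 mg/L. Of the 371 lower, 208 had the same sign and 2 were called, BSC4 (-0.37 and -0.34) and SAE2 (-0.45 and -0.56), with medians of -0.29 and -0.02. Across probe sets the changes at the doses correlated at r = 0.034. No array is shared between these comparisons.

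The difference in change between 5 and 1 mg/L was itself tested and passed for 281 probe sets (5.11%), 178 of them with a higher change at 5 mg/L (3.24%) and 103 with a lower one (1.87%). Of the 178, 177 had an estimate below 0 at 1 mg/L, and of the 103, 101 had one above 0. The exceptions were ISR1, at 0.0033 at 1 mg/L, and URA1 and YGR273C, at -0.04 and -0.23. The change at 1 mg/L is subtracted in this test, so these signs follow in part from its construction. The test passed for 65 of the 190 higher and 122 of the 371 lower at 1 mg/L. Those were called from the same 1 mg/L arrays, so these counts are not independent support. With poly-A scaling 5 passed, and all differences shifted by 0.65, or by 0.36 without replicate 2 of 1 mg/L at 180 min. The 281 were 119 without replicate 3 of 1 mg/L at 120 min, 182 without replicate 3 of 1 mg/L at 180 min, 105 and 423 without replicates 1 and 2 of 5 mg/L at 120 min, and 153 and 106 without replicates 2 and 3 of 5 mg/L at 180 min.

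HXT1 read 8.17, 8.19 and 8.40 and then 8.19, 8.25 and 8.39 at 5 mg/L, higher than on any 1 mg/L array at either time and without a change called between the times. Its change differed from that at 1 mg/L by 0.89 (SE 0.11, limma adjusted p = 0.00101). Over all probe sets, 3.24% passed this test with a higher change at 5 mg/L and 1.87% with a lower one. The change of each list at 1 mg/L is subtracted here as well, so the directions below follow in part from the construction of the test. For ribosome biogenesis, 23 of 73 members passed this test, all with a higher change at 5 mg/L. The list mean at 5 mg/L was 8.95, 8.93 and 8.998 at 120 min and 8.94, 8.91 and 8.96 at 180 min, so at both times it stood within the range of the 180 min arrays at 1 mg/L. For respiration 15 of 40 passed, all with a lower change, which included QCR10 at -0.56 (turned to 0.09 by poly-A scaling), and the list mean stayed at or below 9.14 on all arrays of 5 mg/L. For iron uptake 10 of 31 passed, all with a higher change, and the list mean was 8.56, 8.70 and 8.60 and then 8.69, 8.78 and 8.79. General stress had 6 of 36 lower, and its mean at 5 mg/L was 7.50, 7.59 and 7.57 and then 7.49, 7.59 and 7.57, above all 1 mg/L arrays.

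**Figure D5:**
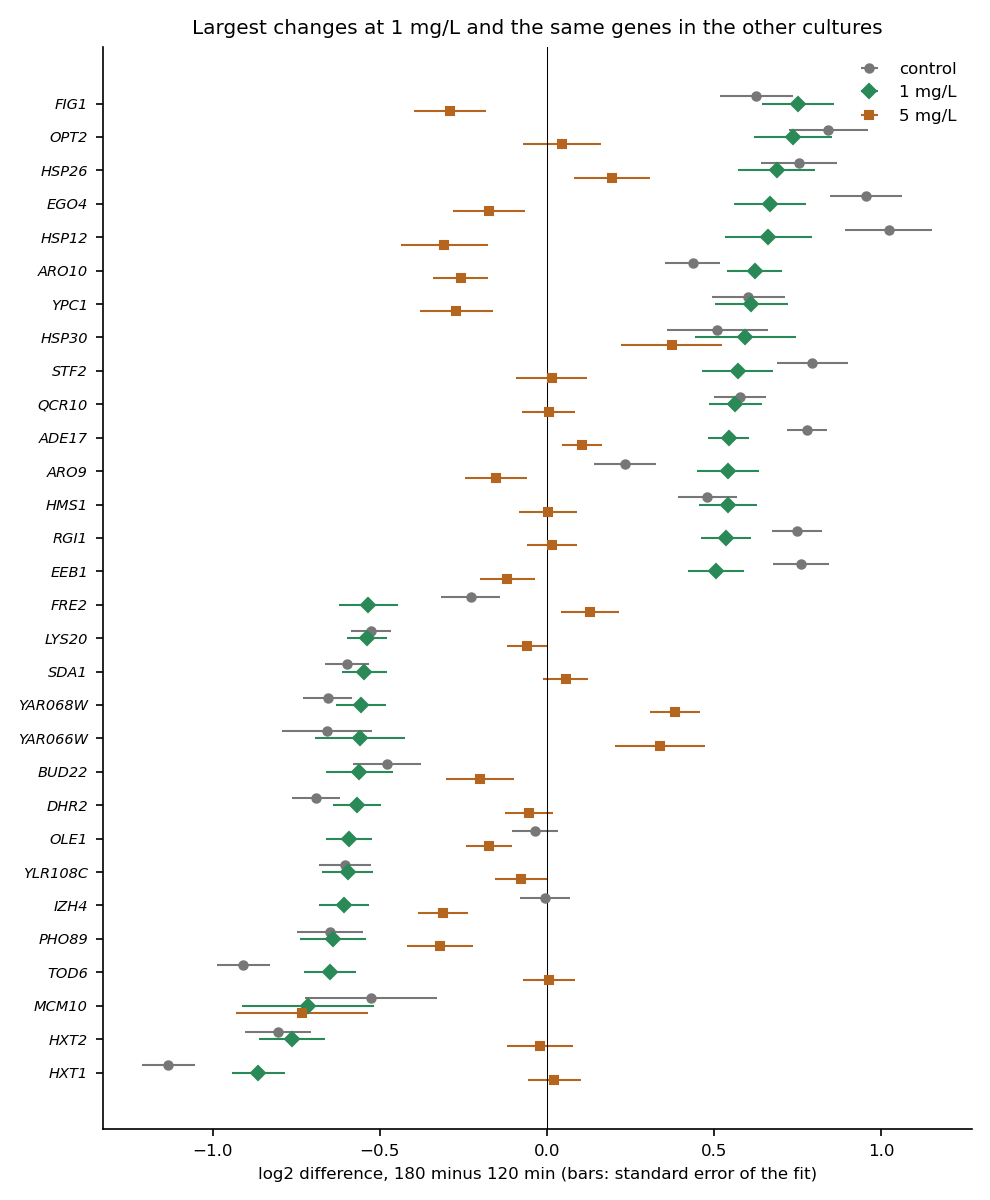
Change from 120 to 180 min (log2, horizontal axis, bars are standard errors of the fit) of the 15 largest rises and 15 largest falls called at 1 mg/L, with the same genes in controls and at 5 mg/L. These genes were chosen for their 1 mg/L values, so only the other 2 series are free of that choice; OLE1 and IZH4 have the widest gaps to the control points, at -0.56 and -0.60 (1 mg/L minus control), followed by HSP12 at -0.36 and ARO9 at 0.31, and no such gap passed the test. Poly-A scaling would shift the points by -0.24 at 1 mg/L, -0.13 in controls and 0.41 at 5 mg/L.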

How the data were processed

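The data are 18 one-colour Affymetrix yeast arrays, of which the 6 of 1 mg/L carry the main comparison. The deposited values are RMA signals, taken as log2 from their range of 0.41 to 13.74, since the base is not given in the sources used here. RMA, affy and limma are named per the submitters' processing notes, with versions not given in the sources used here. Per the labels' protocols, total RNA from an RNeasy kit was amplified and biotin-labelled by GeneChip in vitro transcription from the 3' end. Of 10928 probe sets, the platform annotation named 7245; 5498 belonged to S. cerevisiae (5449 genes, 12 symbols updated through the supplied RefSeq gene table), 1747 to another yeast, 213 were controls and 3470 were unnamed. The background level, 1.86, is percentile 95 of the other-yeast means. The 47 genes with several probe sets kept each as its own measurement; 3 of these were called at 1 mg/L, each by only some of its probe sets, and none in opposite directions. Of the 561 called probe sets, 7 were of types that several transcripts can share.

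Group means over all 18 arrays in 6 groups were fitted in limma 3.58.1 under R 4.3.3 (lmFit, contrasts.fit, eBayes without trend or robust settings), with 12 residual degrees of freedom. Each comparison's p-values received a Benjamini-Hochberg adjustment across all 5498 probe sets, with 0.05 as the threshold. The comparisons were 180 with 120 min at each dose and in controls, and the differences of those changes. The fitting steps were run on simulated arrays with independent noise and the same spread in every group. That does not test the calls on arrays of unequal spread. The comparison, the 41 gene lists (1426 genes, 29 of them in more than 1 list) and the tests were chosen with earlier results of these data known.

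Named genes were the 15 largest rises and falls called at 1 mg/L whose arrays did not overlap and whose means were above background, up to 4 called members per list with the smallest p plus members needed to describe a list, the 5 largest each way for the 5 mg/L difference, the 3 smallest p each way for the control difference, and strain markers. Alternatives were the compared arrays only, array weights, a trended robust prior, a filter on dim probe sets, 3 scalings, a replicate block and leaving out arrays; 2 that leave out arrays standing apart were added after seeing the data. Replicate numbers were not taken to pair the arrays: residuals of same-numbered arrays at 1 mg/L correlated at -0.12, 0.06 and 0.18, and of 15 pairs of groups only controls and 1 mg/L at 120 min had all 3 above 0.1 (0.25, 0.41 and 0.37). No genome positions were used here.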

Additional observations from a re-analysis of the deposited data

Results flagged for a closer look

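The change between the times differed between 5 and 1 mg/L for 281 probe sets by the interaction test in limma (adjusted p under 0.05). All values here are the log2 change at 5 mg/L minus that at 1 mg/L. Genes chosen for a large change at 1 mg/L tend to differ in this test, since it uses the same 1 mg/L values. Among the 15 largest falls at 1 mg/L, the differences were 0.89 for HXT1, 0.74 for HXT2, 0.66 for TOD6, 0.60 for SDA1, 0.51 for DHR2 and 0.48 for LYS20. They were 0.66 for FRE2, 0.42 for OLE1, 0.52 for YLR108C, 0.94 for YAR068W and 0.90 for YAR066W. The YAR066W probe set is of a type that related transcripts share. OLE1 lost its call without any of 4 arrays in turn. Among the 15 largest rises at 1 mg/L the differences were -1.04 for FIG1, -0.97 for HSP12, -0.88 for ARO10, -0.88 for YPC1, -0.84 for EGO4 and -0.69 each for ARO9 and OPT2. They were -0.63 for EEB1, -0.56 for QCR10, -0.56 for STF2, -0.54 for HMS1, -0.52 for RGI1 and -0.44 for ADE17, and the last 6 changed sign under poly-A scaling.

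The remaining genes were not among the largest changes at 1 mg/L. SRT1, a cis-prenyltransferase, differed by -1.11 and read 4.13, 3.57 and 3.45 and then 3.80, 3.86 and 3.93 at 1 mg/L, with overlap, against 5.63, 5.53 and 5.74 and then 4.61, 4.84 and 4.54 at 5 mg/L. MAM1, a meiotic protein, differed by -0.98 and YGL006W-A by -1.20; each was lost without any of 8 arrays in turn. FIT1, a cell wall protein that binds siderophores, differed by 1.02, having changed by -0.35 at 1 mg/L (adjusted p = 0.114) and by 0.67 at 5 mg/L (adjusted p = 0.0303). YMR317W differed by 0.99, with changes of -0.40 (adjusted p = 0.0506) and 0.60 (adjusted p = 0.0306).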

How the results depend on the processing

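For 1 mg/L, 190 probe sets rose and 371 fell. The counts were 12 and 25 with the spread of the compared arrays only, 699 and 864 with array weights, 0 and 0 with poly-A scaling, also with replicate 2 at 180 min left out, and 76 and 125 without replicate 1 at 120 min and replicate 2 at 180 min together. Leaving out 1 array gave 75 to 317 rises and 178 to 481 falls, and 186 probe sets were called with all arrays and without each of the 6. Without replicate 2 at 180 min, which stood apart, 132 and 265 were called, 333 of them among the 561. For the control interval the 1278 calls became 2217, 2861 and 1 with compared arrays only, array weights and poly-A scaling, and 646 to 1149 without 1 array. For 5 mg/L the 49 became 7, 655 and 2 in the same order, 79 with quantile normalization, and 7 to 131 without 1 array. For 1 mg/L minus control, 159 passed with array weights and 0 under every other alternative. For 5 minus 1 mg/L the 281 became 66, 814 and 5, then 0 with poly-A scaling and replicate 2 of 1 mg/L at 180 min left out, 140 with both doubted arrays left out, and 105 to 423 without 1 array. The cause of these shifts was not tested. The compared arrays alone give fewer degrees of freedom in every comparison, yet the control calls rose while those of 1 and 5 mg/L fell. They also use the spread of their own groups only. Median absolute differences between replicate arrays were 0.06 to 0.08 in controls, 0.09 to 0.14 at 1 mg/L and 0.08 to 0.14 at 5 mg/L.

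With the replicate number as a block, 191 rose and 379 fell, 513 of them among the 561. The numbers gave no pairing at 1 mg/L, where 0 of 6 arrays correlated best with its own number; between controls and 1 mg/L at 120 min, 6 of 6 did. For 1 mg/L minus control the block gave 0 calls, 158 at an unadjusted p under 0.05, and an adjusted p of 0.18 for OLE1 and IZH4 in limma.

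Of the 30 largest changes, 27 were called without each array (not MCM10, YAR066W and HSP30), and 19 on the compared arrays only. Of all 115 named genes called at 1 mg/L, 60 kept the call without each array. Among the genes named by rule, signs changed in 14 of 4052 values, all under poly-A scaling, which turned 55 of all 190 rises. At 1 mg/L the named ones were MDH2 at -0.0376, FOX2 at -0.0106, MRPL15 at -0.0056, MRPS8 at -0.0054, GRX2 and GRE3 at -0.0053, GRX1 at -0.0048 and ADE13 at -0.0028. For 5 minus 1 mg/L they were EEB1 at 0.0217, RGI1 at 0.13, HMS1 at 0.11, ADE17 at 0.21, QCR10 at 0.0887 and STF2 at 0.0905.

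With 3 arrays per group the smallest change called at 1 mg/L was 0.14. Of 68 probe sets below background, 3 were called.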
